A study of Mus musculus with 16 samples.

Results

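The genes described here are 10 components of hepatic insulin signaling and its FoxO arm, chosen by name: the insulin receptor gene *Insr*, the adaptor genes *Irs1* and *Irs2*, the phosphoinositide 3-kinase (PI3K) regulatory subunit gene *Pik3r1*, the kinase genes *Akt1* and *Akt2*, the transcription factor genes *Foxo1* and *Foxo3*, and *Igfbp1* and *Trib1*. They are 10 of 55450 genes in the count table and 10 of the 11675 genes tested, so that every one of them passed the filter on low levels (at least 1 CPM on average over all libraries, where CPM are counts scaled to the normalized library total). Their mRNA was measured by bulk RNA-seq in primary hepatocytes of wild-type C57BL/6J mice, which the study's methods give as male and 8 to 12 weeks old. The hepatocytes were cultured overnight and were left untreated, given 10 mM sodium itaconate, given a 10-fold dilution of a chemically defined lipid mixture (fatty acids with cholesterol), or given both. Each group had 4 libraries, labelled replicates A to D, and every group including the untreated one was kept in DMEM with 5% FBS and an insulin-transferrin-selenium supplement. Insulin was thus present in all 16 libraries, and no comparison sets cells with insulin against cells without it. The labels do not say whether the letters stand for separate mice, so the p-values measure the spread between these libraries, which may be technical.

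Insulin binds its receptor, a tyrosine kinase encoded by *Insr*, which phosphorylates the adaptors IRS1 and IRS2. These recruit PI3K, and the lipid it makes brings AKT to the membrane to be activated. In the liver, active AKT phosphorylates FoxO transcription factors and keeps them out of the nucleus, which lowers transcription of FoxO targets such as *Igfbp1*, *Irs2* and the genes of glucose production, while a separate arm through SREBP-1c induces lipid synthesis. Most of this regulation acts on proteins, through phosphorylation and localization, and mRNA levels do not measure it.

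FoxO proteins recognize short forkhead elements, and the promoter of *Igfbp1* is the textbook case of an insulin response sequence. Promoter windows from RefSeq (GRCm38.p6, 250 bases before to 50 after a transcription start) were held for 8 of the 10 genes, in 13 windows, with none for *Insr* and *Trib1*. They were searched on both strands for GTAAACA, the forkhead core, and CAAAACA, the core of the insulin response sequence. Of these windows 4 held a match, and their surroundings are shown because they place the measured genes beside the elements that the pathway is known for. Capitals mark the matched letters, the flanks are 20 bases, and a capital run TGTTTAC or TGTTTTG is the motif on the opposite strand.
*Igfbp1*, chr11:7197659-7197705, plus strand: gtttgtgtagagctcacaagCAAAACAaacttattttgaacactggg
*Irs2*, chr8:11008940-11008986, minus strand: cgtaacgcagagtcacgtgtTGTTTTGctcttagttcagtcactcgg
*Irs1*, chr1:82291445-82291570, minus strand: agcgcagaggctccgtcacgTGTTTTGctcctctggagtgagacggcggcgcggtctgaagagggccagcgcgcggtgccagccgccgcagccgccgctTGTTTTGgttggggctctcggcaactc
*Akt1*, chr12:112675019-112675065, minus strand: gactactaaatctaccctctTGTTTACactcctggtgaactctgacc

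The match began 108 bases before the RefSeq start in *Igfbp1*, 37 in *Irs2*, 161 in *Akt1*, and 111 and 32 in *Irs1*. Only *Irs1* held the exact letters CAAAACA more than once. The search took exact letters, so a variant copy of an element in any of these promoters would be missed. RefSeq and GENCODE starts can differ, and the RefSeq window of *Irs2* (11008880 to 11009179) lies wholly upstream of its GENCODE gene (10984681 to 11008458). Among all 32851 RefSeq promoter windows of the same length, 3.65% held GTAAACA, 6.28% held CAAAACA and 0.493% held CAAAACA more than once. A match is a description of letters, not of binding, and binding was not measured here.

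The libraries held 22346049 to 35512004 expected counts each, with a median of 27719372. The least abundant of the 10 genes, *Irs1*, had 137 to 369 counts per library and the most abundant, *Igfbp1*, had 11388 to 23234. Lipid + itaconate replicate B stood apart from the other libraries of its group, with a difference from them of 106 to 147 times counting noise (chi-square per gene) where all other pairs within groups were at 10.0 to 64.5. With it left out, the number of the 10 genes that passed was still 1 for itaconate against untreated, 0 for lipid + itaconate against lipid and 6 for lipid against untreated, and it was 7 instead of 8 for lipid + itaconate against itaconate. The hepatocyte label was matched by its markers, which summed to 32000 to 56000 CPM in each library, with albumin at 24200 to 44600 CPM. Of the markers of other liver cells, *Krt7*, *Col1a1*, *Lrat*, *Des*, *Pdgfrb*, *Acta2* and *Cldn7* were at 0 or below 0.25 CPM in every library, while *Spp1* (236 to 1050 CPM), *Cd68* (125 to 300 CPM), *Sox9* (80.8 to 148 CPM) and *Reln* (15.4 to 24.3 CPM) were present.

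**Figure D1:**
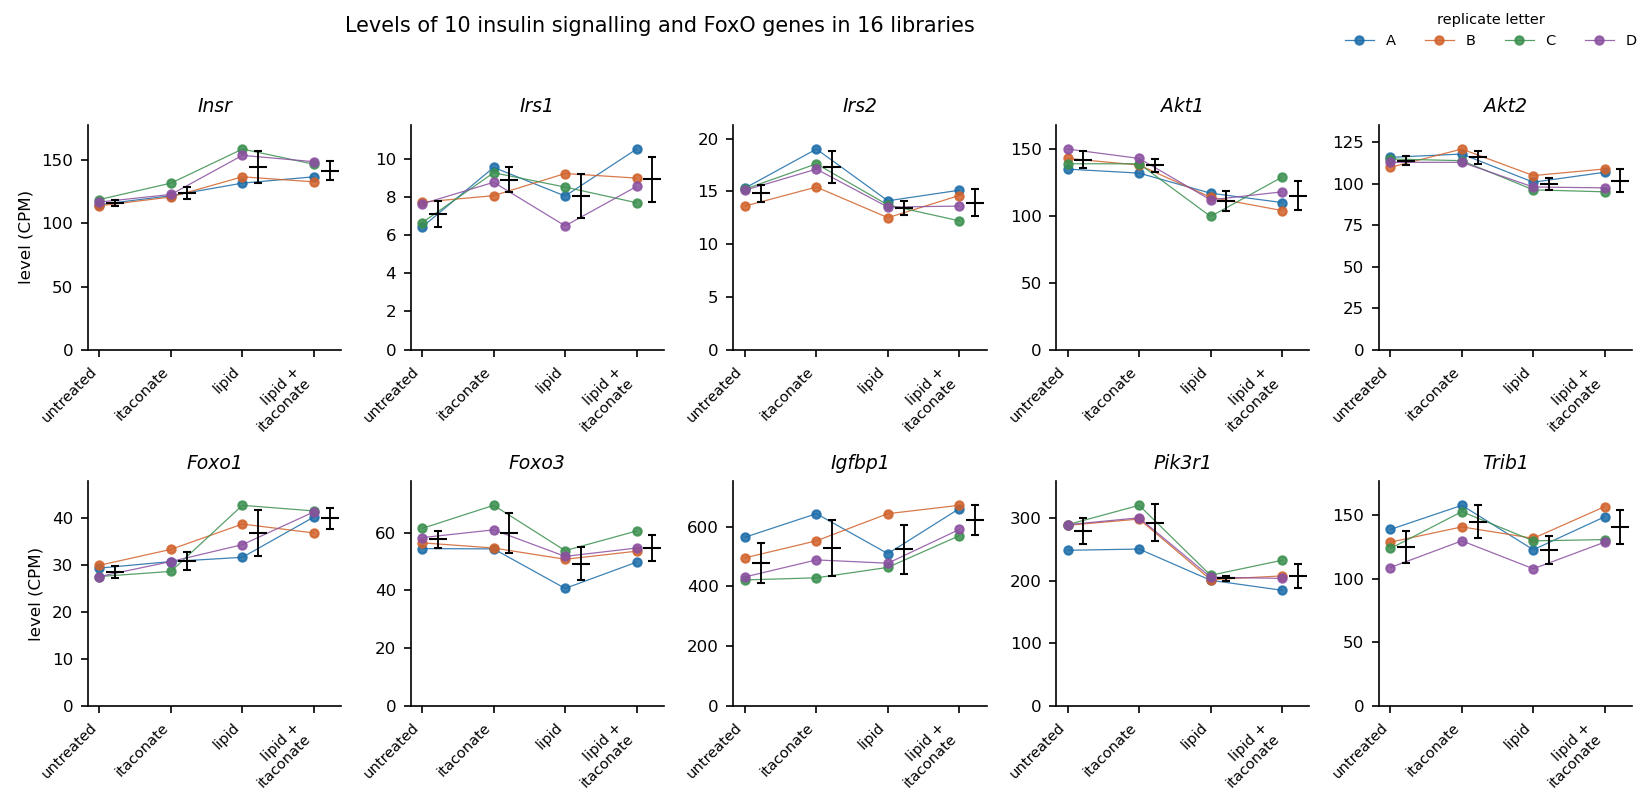
Level in CPM (vertical axis, from 0) of each of the 10 genes in the 4 treatment groups (horizontal axis). Points are libraries, colored and joined by replicate letter, and the black marks give the mean and SD of 4 libraries. *Pik3r1*, *Akt1* and *Akt2* sat lower and *Insr* and *Foxo1* higher in all 4 lipid libraries than in all 4 untreated libraries.

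Exposure to lipid changed 6 of the 10 genes. *Insr* and *Foxo1* rose by 24.8% and 28.7%. *Pik3r1* fell by 26.8%, *Akt1* fell by 21.9%, *Foxo3* fell by 14.8% and *Akt2* fell by 11.9%. In these 6 genes the lipid-treated and untreated libraries did not overlap. The background in this comparison was high: 47.5% of the genes tested passed at an adjusted p under 0.05 (23.8% higher and 23.7% lower), and 32.5% did not overlap between groups. Itaconate changed fewer genes, with 4.91% of all genes tested called against untreated cells (1.96% higher, 2.95% lower) and 7.53% not overlapping. Of the 10 genes only *Trib1* was called there, and *Insr*, *Irs1* and *Irs2* did not overlap between groups without being called. In cells that also had lipid, itaconate changed none of the 10 by edgeR's quasi-likelihood test, against a background of 2.58% called (1.32% higher, 1.26% lower) and 5.82% not overlapping. In that comparison the unadjusted p was under 0.05 for 3 of the 10 (*Foxo3*, *Igfbp1* and *Trib1*) and for 2025 of all 11675 genes tested. DESeq2 and the fit without a filter on low levels each called 2, *Igfbp1* and *Trib1*. The 2.58% belongs to the edgeR fit reported, and the shares of all genes called in these 2 fits are not given here. Lipid in the presence of itaconate changed 8 of the 10 genes, where 47.0% of all genes tested were called (23.5% higher, 23.5% lower) and 31.4% did not overlap. The comparisons of lipid share libraries with those of itaconate, so their values are given side by side and are not independent of each other.

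**Figure D2:**
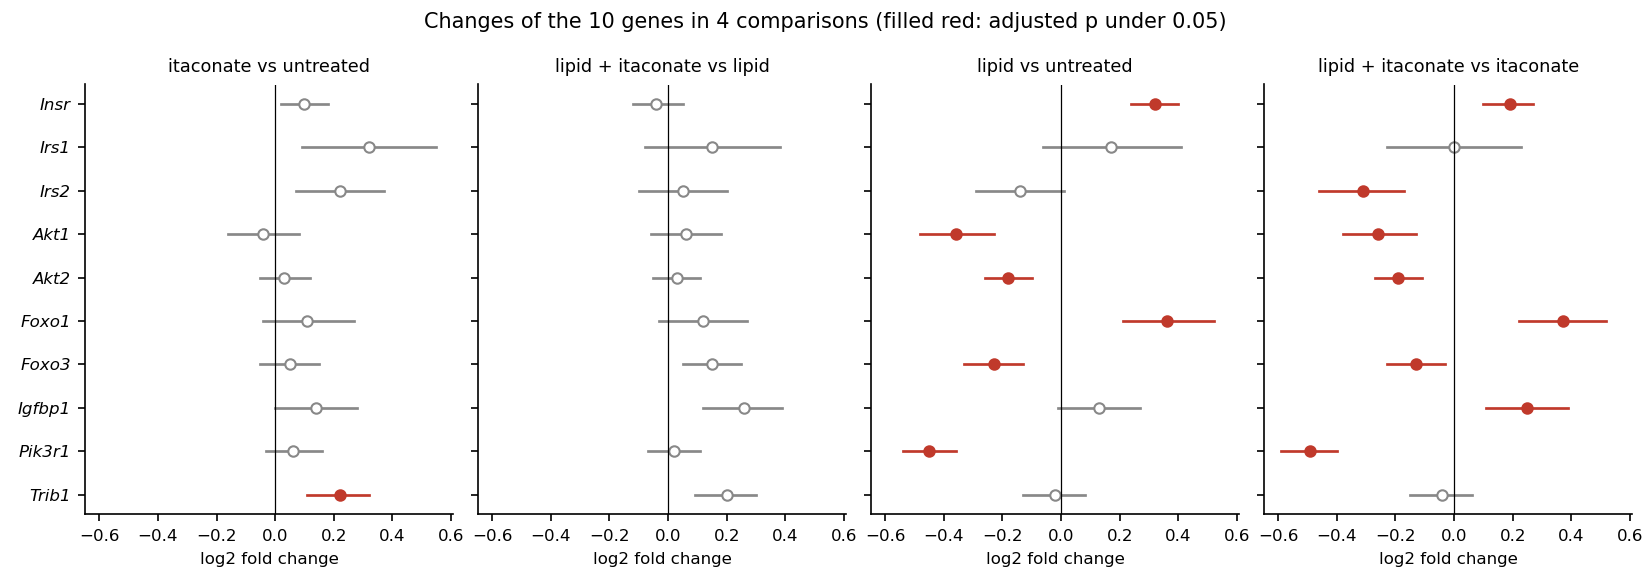
Log2 fold change (horizontal axis) of the 10 genes (rows) in 4 comparisons (panels), with bars for 95% intervals of the edgeR estimate. Filled red points have an adjusted p under 0.05, which are 1, 0, 6 and 8 of 10 from left to right, and the open points of the left panel lie right of 0 for all genes but *Akt1*.

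The receptor gene *Insr* (chromosome 8, 3122061 to 3279617, minus strand, mm10) was at 115, 114, 119 and 117 CPM in untreated replicates A to D and at 132, 137, 159 and 154 CPM in lipid-treated cells. It was at 122, 121, 132 and 123 CPM with itaconate and at 137, 133, 147 and 149 CPM with both. Every library with lipid thus lay above every untreated library, and the gap was larger in C and D than in A and B. The log2 fold change with lipid was 0.32 (SE 0.0418, adjusted p = 1.92e-05), and in the presence of itaconate it was 0.19 (SE 0.0415, adjusted p = 0.00192). With itaconate alone *Insr* was higher in all 4 letters without overlap, by 7.03%, with a log2 fold change of 0.10 that did not pass (adjusted p = 0.189). With lipid present, the change with itaconate was −0.04 (95% interval −0.12 to 0.05). The difference between these 2 effects of itaconate was −0.13 (95% interval −0.25 to −0.02), which had an unadjusted p of 0.038 and an adjusted p of 0.546.

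IRS1 and IRS2 carry the signal from the receptor to PI3K. *Irs1* (chromosome 1, 82233101 to 82291416, minus strand) was low, at 6.42, 7.72, 6.65 and 7.63 CPM in untreated cells, and was at 9.54, 8.06, 9.26 and 8.76 CPM with itaconate. The 4 itaconate-treated libraries all lay above the untreated ones, but the log2 fold change of 0.32 (SE 0.119) did not pass after adjustment (adjusted p = 0.131). In lipid-treated cells *Irs1* ranged from 6.48 to 9.22 CPM and with both agents from 7.69 to 10.5 CPM, which overlapped each other and the untreated range. None of the other comparisons of *Irs1* passed (adjusted p of 0.255 to 0.993).

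*Irs2* (chromosome 8, 10984681 to 11008458, minus strand), itself a FoxO target, was at 15.3, 13.6, 15.2 and 15.1 CPM in untreated cells and at 19.0, 15.4, 17.6 and 17.1 CPM with itaconate. With lipid it was at 14.1, 12.5, 13.7 and 13.5 CPM, and with both at 15.1, 14.6, 12.2 and 13.6 CPM. The highest values were those of itaconate alone, which did not overlap with any other group. Against untreated cells the log2 fold change was 0.22 (SE 0.0744, adjusted p = 0.102). It passed only in a model without lipid + itaconate replicate C (adjusted p = 0.047) and in one of the 8 libraries compared (adjusted p = 0.0372). From itaconate alone to both agents *Irs2* fell by 19.5%, lower in 4 of 4 letters, with a log2 fold change of −0.31 (SE 0.0743, adjusted p = 0.00299). From untreated to lipid it was lower in 4 of 4 letters with overlapping groups, by −0.14 on the log2 scale (95% interval −0.29 to 0.01, adjusted p = 0.139). The interaction of itaconate and lipid was −0.17 (95% interval −0.38 to 0.04, adjusted p = 0.693).

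*Pik3r1* (chromosome 13, 101680563 to 101768217, minus strand) encodes p85 alpha, which holds the catalytic subunit of PI3K and links it to phosphorylated IRS. It was at 249, 289, 290 and 290 CPM in untreated cells and at 251, 299, 321 and 301 CPM with itaconate. In lipid-treated cells it was at 201, 202, 209 and 206 CPM, and with both agents at 185, 208, 233 and 204 CPM. All 8 libraries with lipid were below all 8 without it. The fall with lipid had the smallest adjusted p of the 10 genes, with a log2 fold change of −0.45 (SE 0.0474, adjusted p = 2.34e-06), and in the presence of itaconate it was −0.49 (SE 0.0473, adjusted p = 1.27e-06). Itaconate gave 0.06 without lipid (95% interval −0.03 to 0.16) and 0.02 with it (95% interval −0.07 to 0.11), neither of which passed.

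AKT1 and AKT2 are the kinases that act on FoxO, and AKT2 is the form most tied to insulin action in liver and muscle. *Akt1* (chromosome 12, 112653821 to 112674884, minus strand) was at 135, 143, 139 and 150 CPM in untreated and at 117, 114, 99.6 and 112 CPM in lipid-treated cells. *Akt2* (chromosome 7, 27591552 to 27640826, plus strand) was at 116, 110, 115 and 113 CPM in untreated and at 101, 105, 96.4 and 98.1 CPM in lipid-treated cells. Neither gene overlapped between these groups. The log2 fold changes with lipid were −0.36 for *Akt1* (SE 0.0626, adjusted p = 0.000268) and −0.18 for *Akt2* (SE 0.0414, adjusted p = 0.00202). From itaconate alone to both agents they were −0.26 (adjusted p = 0.00337) and −0.19 (adjusted p = 0.00157). These 4 calls held under all 23 alternative settings for each. Itaconate changed neither gene detectably, with 95% intervals of −0.16 to 0.08 for *Akt1* and −0.05 to 0.12 for *Akt2* against untreated cells, and of −0.06 to 0.18 and −0.05 to 0.11 in cells with lipid.

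The 2 FoxO genes moved in opposite directions with lipid. *Foxo1* (chromosome 3, 52268336 to 52353221, plus strand), the main FoxO of the hepatic insulin response, was at 29.4, 30.0, 27.6 and 27.6 CPM in untreated and at 31.7, 38.8, 42.8 and 34.4 CPM in lipid-treated cells. *Foxo3* (chromosome 10, 42181841 to 42276755, minus strand), which shares many targets with it, was at 54.5, 56.5, 61.5 and 58.3 CPM in untreated and at 40.7, 50.8, 53.8 and 51.8 CPM in lipid-treated cells. Neither overlapped between these groups, but both gaps were narrow. The lowest lipid-treated library of *Foxo1* was at 31.7 CPM, against 30.0 CPM in the highest untreated one. The highest lipid-treated library of *Foxo3* was at 53.8 CPM, against 54.5 CPM in the lowest untreated one. The log2 fold change was 0.36 for *Foxo1* (SE 0.0783, adjusted p = 0.00135) and −0.23 for *Foxo3* (SE 0.0513, adjusted p = 0.00175). Without the replicate letter in the model, the change of *Foxo3* did not pass (adjusted p = 0.0608).

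From itaconate alone to both agents, *Foxo1* rose from 30.8, 33.4, 28.7 and 30.8 CPM to 40.3, 36.9, 41.6 and 41.4 CPM, by 0.37 on the log2 scale (SE 0.0768, adjusted p = 0.00107). *Foxo3* fell from 54.4, 54.7, 69.5 and 61.0 CPM to 49.8, 53.6, 60.6 and 54.7 CPM, lower in 4 of 4 letters with overlapping groups, by −0.13 (SE 0.0506, adjusted p = 0.0457). That fall of *Foxo3* was near the threshold and passed in 9 of 23 alternative settings. It did not pass without the replicate letter in the model (adjusted p = 0.273), with no filter on low levels (0.116), in a model of only the 8 libraries compared (0.0602) or in limma-trend (0.0545). Nor did it pass without itaconate replicate A, C or D (0.0945, 0.177 and 0.0875), lipid + itaconate replicate A, B, C or D (0.0585, 0.0655, 0.0689 and 0.119), untreated replicate B or D (0.0558 and 0.0569) or lipid replicate D (0.0516), all adjusted p. With itaconate in cells that had lipid, *Foxo3* was higher in 4 of 4 letters, by 11.1%, with an unadjusted p of 0.00941 and an adjusted p of 0.134. *Foxo1* was higher with itaconate by 8.17% without lipid (adjusted p = 0.426) and by 8.80% with it (adjusted p = 0.434).

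*Igfbp1* (chromosome 11, 7197782 to 7202546, plus strand) encodes a secreted binding protein of insulin-like growth factors, whose transcription insulin represses through FoxO1. It was at 565, 496, 422 and 432 CPM in untreated cells and at 644, 553, 429 and 489 CPM with itaconate. With lipid it was at 510, 644, 464 and 478 CPM, and with both agents at 661, 672, 570 and 591 CPM. The groups overlapped in all 4 comparisons, and replicates A and B were above C and D in every group. Within letters *Igfbp1* was higher in all 4 with itaconate, both without and with lipid, and the highest mean was that of both agents (623 ± 50.8 CPM, SD, n = 4, against 479 ± 66.3 CPM in untreated cells). The change that passed was that from itaconate alone to both, a log2 fold change of 0.25 (SE 0.0711, adjusted p = 0.00971), which did not pass without the replicate letter in the model (adjusted p = 0.158). From lipid alone to both, the log2 fold change was of like size, 0.26 (SE 0.0712), and missed the threshold (adjusted p = 0.0686). It passed without lipid replicate B (adjusted p = 0.0237), without the filter on low levels (0.000117) and in DESeq2 (0.0167). Against untreated cells the changes were 0.14 with itaconate (adjusted p = 0.274, and 0.0168 in a model of only the 8 libraries compared) and 0.13 with lipid (adjusted p = 0.140). The latter passed without lipid replicate A (adjusted p = 0.0171) and without the filter on low levels (0.0294).

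*Trib1* (chromosome 15, 59648350 to 59657099, plus strand) encodes a tribbles pseudokinase that brings C/EBP alpha to the COP1 ubiquitin ligase and is associated with plasma lipids. It was at 139, 129, 124 and 109 CPM in untreated cells and at 158, 141, 153 and 130 CPM with itaconate. With lipid it was at 123, 132, 130 and 108 CPM, and with both agents at 149, 157, 131 and 129 CPM. The groups overlapped, and letter D was the lowest in each of them, but within each letter the library with itaconate was the higher one, without lipid and with it. *Trib1* was the 1 gene of the 10 called for itaconate against untreated, with a rise of 16.2% (log2 fold change 0.22, SE 0.0542, adjusted p = 0.0314).

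The call of *Trib1* was near the threshold. It did not pass without untreated replicate B, C or D (adjusted p of 0.0902, 0.0918 and 0.0951), without itaconate replicate A, C or D (0.0826, 0.149 and 0.0857) or when the letter was dropped from the model (0.306), and it held in 16 of 23 alternative settings. In cells with lipid the rise with itaconate was 14.6% (log2 fold change 0.20, SE 0.0542, adjusted p = 0.0665). It passed without lipid + itaconate replicate C (adjusted p = 0.00932), without the filter on low levels (0.0114) and in DESeq2 (0.0287). Lipid did not change *Trib1* detectably, with a log2 fold change of −0.02 (95% interval −0.13 to 0.08) against untreated cells and of −0.04 (95% interval −0.15 to 0.06) in the presence of itaconate.

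Across the 10 genes, 9 had a positive log2 fold change with itaconate, both against untreated cells (median 0.11, all genes tested 0.00) and in cells with lipid (median 0.09, all genes tested 0.00). Of all 11675 genes tested, 5775 and 5832 were positive in these comparisons. For the first of these comparisons 4 of 10 had an unadjusted p under 0.05 (*Insr*, *Irs1*, *Irs2* and *Trib1*), as did 2482 of all 11675 genes tested. With lipid, 4 of 10 had a positive change (median −0.08), and in the presence of itaconate 4 of 10 did as well (median −0.09). Of all genes tested, 5918 and 5928 were positive there. The interaction of itaconate and lipid was called for none of the 10 by edgeR (adjusted p of 0.546 to 0.990, with 1 of 10 at an unadjusted p under 0.05, and 0 of 10 in DESeq2), and for 0.00857% of all genes tested, which was 1 gene. Its unadjusted p by edgeR was under 0.05 for 1004 of all 11675 genes tested. In bulk RNA, fewer cells of a type and less RNA per cell cannot be told apart.

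**Figure D3:**
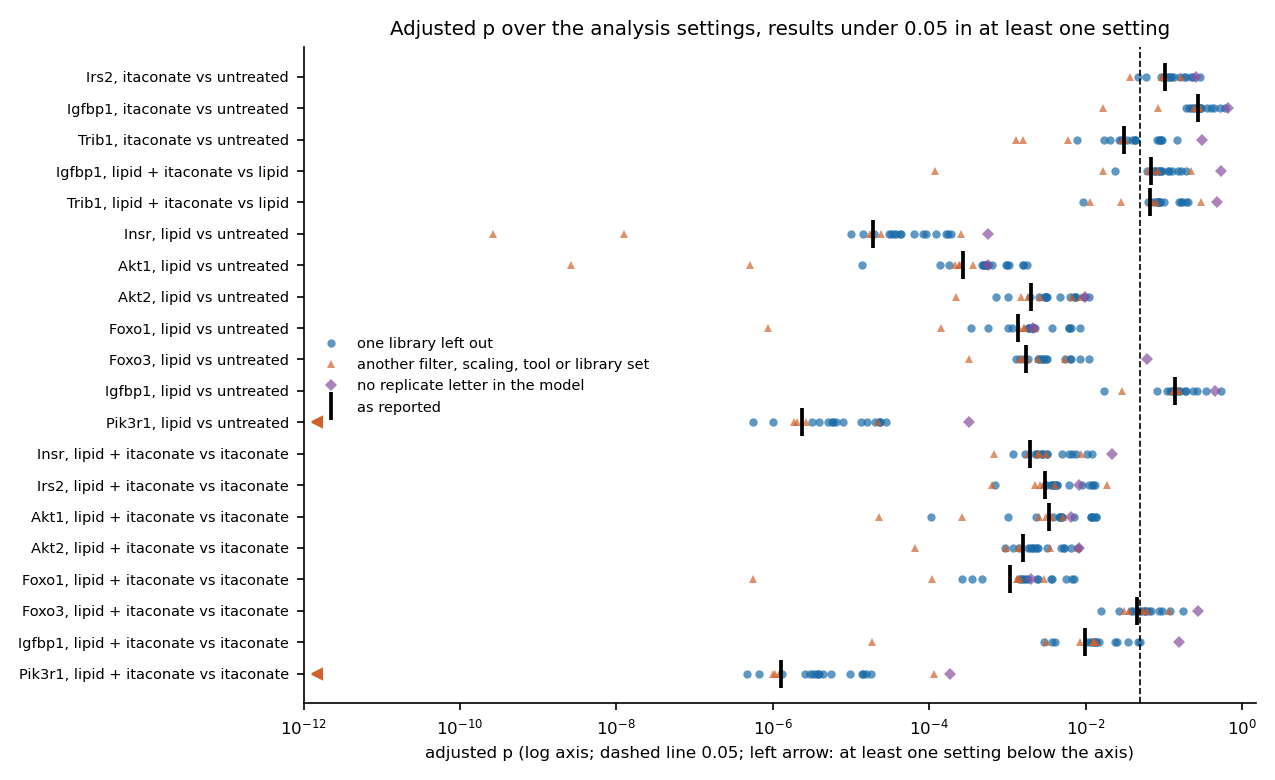
Adjusted p (horizontal log axis, dashed line at 0.05) of 20 results of the 10 genes under the reported model (black bar), with 1 library left out (blue), with another filter, scaling, tool or library set (orange) and without the replicate letter (purple). The changes of *Insr*, *Akt1*, *Akt2*, *Foxo1* and *Pik3r1* with lipid lay left of the line in every setting, and *Trib1* with itaconate and *Foxo3* from itaconate to both lay on either side of it.

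Per kilobase of merged exons, the order of the 10 genes in untreated cells was *Igfbp1* (314 ± 43.5 CPM per kb, SD, n = 4), *Akt1* (34.6 ± 1.57), *Pik3r1* (27.7 ± 2.00), *Trib1* (20.1 ± 2.01), *Akt2* (15.9 ± 0.362), *Insr* (8.45 ± 0.174), *Foxo3* (7.62 ± 0.394), *Foxo1* (3.30 ± 0.141), *Irs2* (2.34 ± 0.126) and *Irs1* (0.777 ± 0.0731). Each of these differed from its neighbor in the order by more than their SDs. In lipid-treated cells *Trib1* (19.7 ± 1.76) and *Pik3r1* (20.3 ± 0.377) came within their SD of each other. The ratio of *Akt1* to *Akt2* per kilobase was 2.18 ± 0.137 in untreated cells, 2.06 ± 0.124 with itaconate, 1.92 ± 0.0985 with lipid and 1.98 ± 0.313 with both. The ratio of *Foxo1* to *Foxo3* was 0.435 ± 0.0384, 0.458 ± 0.0744, 0.656 ± 0.0516 and 0.642 ± 0.0521 in the same order. *Foxo3* remained the more abundant FoxO mRNA in every library, but the libraries with lipid (0.580 to 0.707) lay above those without it (0.361 to 0.533). The ratio of *Irs1* to *Irs2* was 0.334 ± 0.0466, 0.357 ± 0.00737, 0.417 ± 0.0743 and 0.444 ± 0.0257. The order and the ratios depend on the length used, which spans all annotated exons and not only those of the isoforms expressed. In CPM, *Pik3r1* lay above *Akt1* in untreated cells (means of 280 and 142), the reverse of the order per kilobase.

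The other genes of the pathway were taken from 6 lists of 107 genes in all, of which 98 were tested. The genes not tested, which were below 1 CPM on average, included *Igf1r*, *Insrr*, *Pik3cd*, *Inpp5d*, *Trib2*, *Foxo6*, *Trim63* and *Pnpla3*. With lipid, 63 of 98 were called (25 higher, 38 lower), or 64.3% against the background of 47.5%. From itaconate alone to both it was 58 of 98 (22 higher, 36 lower), or 59.2% against 47.0%. With itaconate against untreated, 3 of 98 were called, or 3.06% against 4.91%, and with itaconate in cells that had lipid 10 of 98, or 10.2% against 2.58%. The lists were chosen with earlier results of these data known, so these shares describe the lists and do not test them. None was called for the interaction by edgeR, with 19 of 98 at an unadjusted p under 0.05 and 1 of 98 called by DESeq2. Of all 11675 genes tested, 2482 had an unadjusted p under 0.05 by edgeR with itaconate against untreated. With itaconate in cells that had lipid it was 2025, and for the interaction 1004. The list counts of unadjusted p given below stand beside these. The log2 fold change with itaconate was positive for 65 of the 98 against untreated and for 54 of the 98 in cells with lipid.

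**Figure D4:**
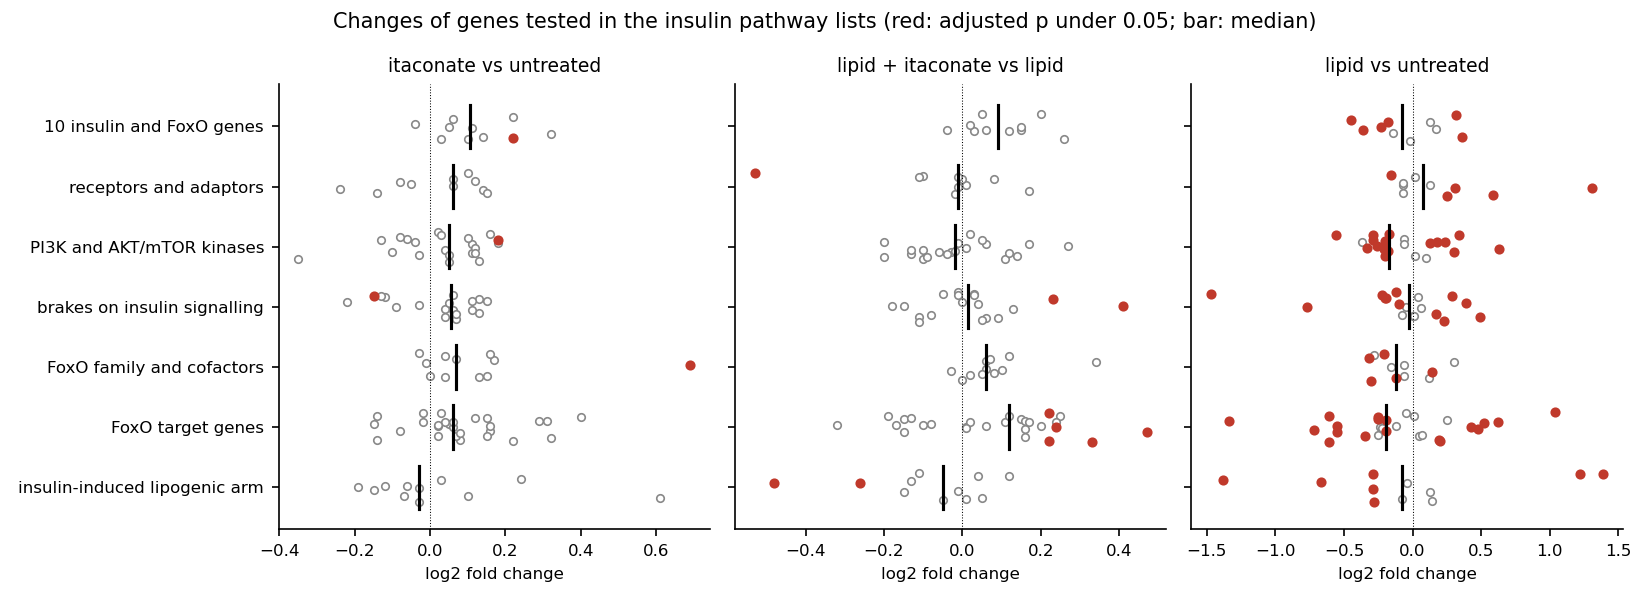
Log2 fold change (horizontal axis) of the 10 genes and of the tested genes of 6 pathway lists (rows) in 3 comparisons (panels, each with its own scale). Points are genes, red with an adjusted p under 0.05, spread vertically for legibility, and black bars are list medians, which lie between −0.19 and 0.12 in all 3 panels.

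Among receptors and adaptors, 5 of 10 tested were called with lipid (4 higher, 1 lower, median log2 fold change 0.07). This count was near the background, since 47.5% of all genes tested were called in that comparison. *Grb10*, an adaptor that binds the insulin receptor and restrains it, rose from 9.04, 9.33, 7.49 and 7.81 CPM to 20.0, 18.2, 23.2 and 21.7 CPM, with a log2 fold change of 1.31 (adjusted p = 7.04e-08). It also rose from itaconate alone to both (1.02, adjusted p = 1.38e-06). With itaconate in cells that had lipid it fell to 15.4, 14.9, 14.9 and 12.7 CPM, by −0.53 (adjusted p = 0.00967), below every lipid-treated library. This fall did not pass in a model of only the 8 libraries compared (adjusted p = 0.135). The adaptor genes *Gab1* (0.31, adjusted p = 0.000774) and *Sos1* (0.25, adjusted p = 0.000288) rose with lipid. From itaconate alone to both, *Sh2b2* rose (0.61, adjusted p = 0.00351) and *Sh2b1* fell (−0.27, adjusted p = 3.82e-05), both adaptors of receptor tyrosine kinases. For itaconate against untreated, 0 of 10 were called by edgeR, with 5 of 10 at an unadjusted p under 0.05.

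Of the PI3K, AKT and mTOR kinase genes, 16 of 21 were called with lipid (6 higher, 10 lower, median −0.17) and 13 of 21 from itaconate alone to both (3 higher, 10 lower, median −0.14). These were 76.2% and 61.9%, against 47.5% and 47.0% of all genes tested. *Pik3cb*, a catalytic subunit of PI3K, fell with lipid (−0.33, adjusted p = 1.92e-05) and from itaconate to both (−0.40, adjusted p = 3.08e-06), as its partner *Pik3r1* did. *Gsk3a*, encoding an AKT substrate that restrains glycogen synthesis, fell with lipid (−0.29, adjusted p = 4.83e-05). *Rptor*, a subunit of mTOR complex 1, rose in both comparisons (0.30, adjusted p = 0.000101, and 0.32, adjusted p = 6.12e-05), and *Pik3c2a* fell from itaconate to both (−0.49, adjusted p = 1.39e-06). With itaconate against untreated cells *Pik3cb* rose from 49.0, 53.2, 51.2 and 57.2 CPM to 54.7, 58.0, 59.8 and 67.2 CPM, higher in 4 of 4 letters (0.18, adjusted p = 0.0189). This call of *Pik3cb* did not pass without untreated replicate A, C or D (adjusted p of 0.0504, 0.0654 and 0.0699), itaconate replicate C or D (0.0809 and 0.0777) or the replicate letter in the model (0.285). In cells with lipid, 0 of 21 were called with itaconate by edgeR, with 5 of 21 at an unadjusted p under 0.05.

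Of the genes that restrain insulin signaling, 12 of 18 were called with lipid (5 higher, 7 lower, median −0.02), or 66.7% against 47.5% of all genes tested. *Socs3*, which blocks IRS proteins and is induced by cytokines, fell with lipid from 34.8, 33.6, 29.6 and 30.5 CPM to 20.2, 18.9, 19.7 and 16.6 CPM (−0.77, adjusted p = 2.96e-07). It rose again with itaconate in cells that had lipid, to 27.7, 27.0, 21.8 and 24.2 CPM (0.41, adjusted p = 0.00501), which was above all 4 lipid-treated libraries and below all 4 untreated ones. *Ptprf*, a receptor tyrosine phosphatase that can act on the insulin receptor, fell and rose in the same comparisons, with −0.20 for lipid (adjusted p = 0.00136) and 0.23 for itaconate in cells with lipid (adjusted p = 0.0135). The latter change of *Ptprf* did not pass without lipid + itaconate replicate A (adjusted p = 0.0584). The rises of *Ptprf* and *Socs3* with itaconate did not pass without the replicate letter in the model (adjusted p of 0.311 and 0.124). Nor did they in a model of only the 8 libraries compared (0.22 and 0.203). *Trib3*, a tribbles pseudokinase described as an inhibitor of AKT, rose with lipid (0.39, adjusted p = 2.63e-05). From itaconate to both, 7 of 18 were called (3 higher, 4 lower), or 38.9%, below the 47.0% of all genes tested. Among them were the tyrosine phosphatase gene *Ptpn1* (−0.29, adjusted p = 0.000251), the phosphoinositide phosphatase gene *Inpp5k* (0.44, adjusted p = 0.000292) and *Socs3* (−0.46, adjusted p = 3.63e-05). With itaconate against untreated, *Ppp2r1a*, a scaffold subunit of protein phosphatase 2A, fell by −0.15 (adjusted p = 0.0309). Its call did not pass without untreated replicate A, B or C (adjusted p of 0.101, 0.0638 and 0.105), itaconate replicate A, B, C or D (0.0836, 0.0855, 0.122 and 0.0638), the filter on low levels (0.132) or the replicate letter in the model (0.171).

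Of the FoxO family and its cofactors, 5 of 11 were called with lipid (1 higher, 4 lower) and 9 of 11 from itaconate to both (2 higher, 7 lower, median −0.21). These were 45.5% and 81.8%, against 47.5% and 47.0% of all genes tested. *Sirt1*, a deacetylase of FoxO proteins, fell in both (−0.30, adjusted p = 0.000488, and −0.36, adjusted p = 0.000119), as did *Ywhaz*, a 14-3-3 protein that holds phosphorylated FoxO in the cytoplasm (−0.32, adjusted p = 2e-05, and −0.24, adjusted p = 0.000252). *Mdm2*, a ubiquitin ligase with FoxO among its substrates, fell with lipid (−0.21, adjusted p = 0.0139), which did not pass without untreated replicate A (0.054), lipid replicate A (0.0638, log2 fold change −0.134) or lipid replicate B (0.0584). The acetyltransferase gene *Crebbp* fell from itaconate to both (−0.22, adjusted p = 0.00341). *Ppargc1a*, the coactivator PGC-1 alpha of gluconeogenesis and a partner of FoxO1, was named after its values were seen, since it averaged less than 5 CPM. It rose with itaconate from 3.51, 2.74, 3.32 and 3.35 CPM to 5.33, 4.69, 5.54 and 5.22 CPM without overlap (0.69, SE 0.141, adjusted p = 0.0121). The rise of *Ppargc1a* did not pass without itaconate replicate C (adjusted p = 0.0596) or the replicate letter in the model (0.0716). From itaconate alone to both it fell (−0.63, adjusted p = 0.00177), to 3.67, 3.62, 3.22 and 2.85 CPM. With itaconate in cells that had lipid its log2 fold change was 0.34 (adjusted p = 0.255). In cells with lipid, 0 of the 11 genes were called with itaconate by edgeR, with 2 of 11 at an unadjusted p under 0.05.

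Of the FoxO target genes, 18 of 27 were called with lipid (7 higher, 11 lower, median −0.19) and 16 of 27 from itaconate to both (8 higher, 8 lower, median −0.09), so that the targets did not move in 1 direction. These were 66.7% and 59.3%, against 47.5% and 47.0% of all genes tested. *Pdk4*, a kinase that shuts off pyruvate dehydrogenase in fasting, fell with lipid from 236, 333, 335 and 328 CPM to 98.5, 138, 133 and 117 CPM (−1.34, adjusted p = 1.58e-08). *Sod2*, the mitochondrial superoxide dismutase, fell as well (−0.55, adjusted p = 6.21e-08), while *Gadd45a*, a growth arrest and DNA damage gene, rose (0.52, adjusted p = 7.72e-07). From itaconate to both, *Pdk4* (−1.09, adjusted p = 2.48e-07), *Sod2* (−0.38, adjusted p = 2.66e-06) and the stress gene *Sesn3* (−0.69, adjusted p = 1.51e-05) fell.

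With itaconate in cells that had lipid, 5 of the 27 FoxO target genes were called and all 5 rose, with a list median of 0.12. This was 18.5%, against a background of 2.58% called (1.32% higher, 1.26% lower). The list was chosen with earlier results of these data known, so this contrast is a description and not a test. *Pdk4* rose to 158, 210, 153 and 148 CPM (0.47, adjusted p = 0.0122), still below every untreated library. The others were *Cited2*, a transcriptional coregulator (0.33, adjusted p = 0.00931), *Sod2* (0.22, adjusted p = 0.0105) and, named after their values were seen, the transcriptional repressor gene *Bcl6* (0.24, adjusted p = 0.0142) and the cell cycle inhibitor gene *Cdkn1b* (0.22, adjusted p = 0.0447). *Pdk4* did not pass without lipid + itaconate replicate A (adjusted p = 0.0569), and *Bcl6* did not without that library (0.0734) or lipid replicate D (0.0554). *Cdkn1b* passed in 2 of the 16 fits that left out 1 library. Without the replicate letter in the model none of these 5 passed (adjusted p of 0.276 for *Pdk4*, 0.162 for *Cited2*, 0.455 for *Sod2*, 0.308 for *Bcl6* and 0.208 for *Cdkn1b*). Nor did any of the 5 pass in a model of only the 8 libraries compared (0.125, 0.204, 0.204, 0.22 and 0.319 in the same order). With itaconate against untreated, 0 of 27 were called by edgeR, with 7 of 27 at an unadjusted p under 0.05. The log2 fold change there was positive for 21 of 27, and for 5775 of all 11675 genes tested.

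Of the lipogenic arm that insulin induces, 7 of 11 genes were called with lipid (2 higher, 5 lower) and 8 of 11 from itaconate to both (2 higher, 6 lower). These were 63.6% and 72.7%, against 47.5% and 47.0% of all genes tested. *Insig1*, which retains SREBP in the endoplasmic reticulum and is itself an SREBP target, fell with lipid from 237, 266, 220 and 226 CPM to 90.1, 86.7, 87.5 and 99.7 CPM (−1.38, adjusted p = 1.08e-09), and *Srebf1*, the gene of SREBP-1, fell too (−0.67, adjusted p = 1.31e-06). In contrast *Acaca*, encoding the acetyl-CoA carboxylase that commits carbon to fatty acid synthesis, rose from 48.4, 47.4, 44.5 and 48.3 CPM to 126, 104, 128 and 138 CPM (1.39, adjusted p = 6.65e-08). From itaconate to both, *Insig1* (−1.10, adjusted p = 1.47e-08), *Srebf1* (−0.55, adjusted p = 9.81e-06) and the fatty acid synthase gene *Fasn* (−0.36, adjusted p = 7.95e-06) fell. With itaconate in cells that had lipid, *Acaca* fell to 115, 92.2, 71.0 and 80.3 CPM (−0.48, adjusted p = 0.0221) and *Acly*, ATP citrate lyase, fell by −0.26 (adjusted p = 0.0278). Leaving out lipid replicate C or D or lipid + itaconate replicate D ended the call of *Acaca* (adjusted p of 0.0678, 0.0896 and 0.0757) and of *Acly* (0.0797, 0.101 and 0.0799), and lipid + itaconate replicate A or B also ended that of *Acly* (0.0665 and 0.0624). Without the replicate letter in the model neither call passed (adjusted p of 0.159 for *Acaca* and 0.232 for *Acly*). Nor did they in a model of only the 8 libraries compared (0.248 and 0.22). With itaconate against untreated, 0 of 11 were called by edgeR, with 4 of 11 at an unadjusted p under 0.05.

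The counts for itaconate rested on single libraries and on the model. For itaconate against untreated, 1, 0 and 1 of the 98 pathway genes were called without untreated replicate A, itaconate replicate C and itaconate replicate D, and 6 without lipid + itaconate replicate C. For itaconate in cells with lipid, 5 were called without lipid + itaconate replicate A and 6 without lipid replicate D. In a model without the replicate letter the counts were 0 and 1, and in models of only the 8 libraries compared they were 22 and 0. The shares of all genes called in these fits are not given here.

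Genes whose levels followed those of the 10 most closely were found by the correlation of log2 CPM over the 16 libraries. The means of the replicate letters were removed first. The search was kept to genes that averaged 5 CPM or more. It left out symbols that start with Gm, end in Rik or occur more than once. The libraries share their treatment groups, so a high correlation is a description of a common pattern over these groups. The nearest genes of *Igfbp1* were *Dusp6*, a phosphatase of ERK (r = 0.908), *Bcorl1* (r = 0.894) and *Irf2bpl* (r = 0.863). The nearest were *Xpo1*, the nuclear export receptor, for *Insr* (r = 0.983), *Camk2n1* for *Irs1* (r = 0.851), *Hagh* for *Irs2* (r = 0.973), *Slc4a2* for *Pik3r1* (r = 0.991), *Cyld* for *Akt1* (r = 0.989) and *Ugt2b5* for *Akt2* (r = 0.980). They were *Bivm* for *Foxo1* (r = 0.936), *Vcl* for *Foxo3* (r = 0.945) and *Ugcg*, glucosylceramide synthase, for *Trib1* (r = 0.962). Among the 10 genes themselves *Akt1* and *Pik3r1* (r = 0.926), *Insr* and *Foxo1* (r = 0.891), and *Akt2* and *Pik3r1* (r = 0.889) were closest.

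Markers of other cells moved with lipid as well. The 6 cholangiocyte markers summed to 600 to 1170 CPM in untreated and 573 to 1050 CPM in itaconate-treated cells, and to 336 to 609 and 356 to 646 CPM with lipid and with both. The sum was nearly all *Spp1* and *Sox9*, and the defining markers *Krt7*, *Krt19* and *Epcam* were at most 0.58 CPM. The 8 macrophage markers summed to 181 to 288 CPM in untreated cells, 159 to 244 CPM with itaconate, 232 to 327 CPM with lipid and 215 to 319 CPM with both. Most of the sum was *Cd68* (125 to 300 CPM), which rose with lipid (0.43, adjusted p = 5.36e-06), while most other macrophage markers were lower. With lipid 4 of 7 tested were called (1 higher, 3 lower), from itaconate to both 7 of 7 (1 higher, 6 lower, median −0.77), and with itaconate against untreated 2 of 7 (1 higher, 1 lower). Of all genes tested, 47.5%, 47.0% and 4.91% were called in these comparisons. Of the others, *Cd5l* was at 5.93 to 17.0 CPM, *Marco* at 4.24 to 15.7 CPM, *Lyz2* at 3.81 to 9.83 CPM, and *Clec4f*, *Adgre1*, *Csf1r* and *Vsig4* at most 4.20 CPM. Stellate cell markers summed to 16.4 to 26.1 CPM, mostly *Reln* (15.4 to 24.3 CPM), and endothelial markers to 13.6 to 27.7 CPM over all groups. The 8 hepatocyte markers summed to a mean of 45900 CPM in untreated cells, 47100 CPM with itaconate, 40400 CPM with lipid and 41900 CPM with both. With lipid 4 of the 8 were called (1 higher, 3 lower, median −0.19), and from itaconate to both 4 of 8 (1 higher, 3 lower, median −0.17). The mitochondrial share of counts was 3.63 to 4.14% in untreated cells, 3.27 to 4.69% with itaconate, 3.46 to 4.70% with lipid and 3.99 to 6.01% with both. The part of these markers and of the mitochondrial share in the changes above was not tested.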

How the data were processed

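Stranded libraries of captured mRNA from 16 hepatocyte samples were sequenced. The authors trimmed reads with Cutadapt 1.18, aligned them to mm10 with STAR 2.7.0f and deposited gene-level expected counts from RSEM 1.3.1 (tool versions per the submitters' processing notes). RSEM divides reads that fit several genes or isoforms, so 5.41% of the deposited expected counts were not whole, and close paralogs depend on that division. The values carry no normalization, and the study's own normalization and batch removal came later.

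Here expected counts were rounded, and genes averaging 1 CPM or more were tested. TMM normalization and the quasi-likelihood test of edgeR 4.0.16 (R 4.3.3) were used in a single model of the 16 libraries with treatment and replicate letter as terms. P-values were adjusted by Benjamini-Hochberg across these 11675 genes, and a gene was called where the adjusted p was under 0.05. CPM values use the same scaling. Intervals of 95% are the estimate with its standard error under a normal distribution. Replicate letters come from the sample labels. After subtraction of the group means, libraries with the same letter correlated at 0.143 to 0.468 in all 24 pairs (72 pairs with other letters had a median of −0.114), above the limit of 0.1 set for pairing, so the letter was kept as a block.

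The 10 genes and all lists were chosen with earlier results of these data known. Of the pathway lists, up to 3 genes per list and comparison with the smallest adjusted p and a mean of at least 5 CPM were named. Positions and exon lengths are from GENCODE M21 (GRCm38), in which all 55450 identifiers were found, and promoter windows from RefSeq. Alternatives were a model without the letter, RLE normalization, the filterByExpr rule, testing without a filter, fitting only the 8 libraries compared, DESeq2 1.42.0, limma-trend (limma 3.58.1) and each library left out in turn. Protein sequences were not used here.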

Additional observations from a re-analysis of the deposited data

Results flagged for a closer look

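For each of the 10 genes and 4 groups, the highest and lowest of the 4 libraries were compared with the rest by Dixon's test, and 2 of 40 groups had a library apart at the 95% level, where chance gives about 1 in 20. *Pik3r1* was at 249 CPM in untreated replicate A, against 289 to 290 CPM in the other untreated libraries, a gap of 0.961 of the group's range. *Irs2* was at 13.6 CPM in untreated replicate B, against 15.1 to 15.3 CPM in the others, a gap of 0.887 of the range. Replicate A was also the lowest library of *Pik3r1* in every other group, and replicate B the lowest of *Irs2* with itaconate and with lipid.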

How the results depend on the processing

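The 10 genes had at least 137 counts per library, and the comparisons rested on 4 libraries per group. Of the single-gene results under all alternatives, 219 of itaconate against untreated kept direction and side of the threshold, 7 lost the call, 3 gained it and 1 changed sign. For itaconate in cells with lipid these numbers were 219, 0, 6 and 5, for lipid against untreated 225, 1, 2 and 2, for lipid + itaconate against itaconate 203, 15, 0 and 12, and for the interaction 203, 0, 0 and 16 (1 value that DESeq2 left without an adjusted p was not counted).

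Without the replicate block, 0 of the 10 genes and 0 of the 98 other pathway genes were called for itaconate against untreated, and 1 of the 98 for itaconate in cells with lipid. In the latter comparison 2 of the 10 were called with no filter and 2 in DESeq2, and 0 of the 98 with only the 8 libraries. For itaconate against untreated the 8 libraries gave 3 of 10 and 22 of 98, and no filter gave 9 of 106. Leaving out 1 library gave 0 to 2 and 0 to 6 for itaconate against untreated, and 0 to 1 and 5 to 14 in cells with lipid. The interaction was called for 4 pathway genes with no filter and 1 in DESeq2. Some of these models held fewer libraries, and the cause of the differences was not tested. The shares of all genes called under these settings are not given here, so the counts above have no background beside them.

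The changes of sign were in results reported within 0.06 of 0. *Irs1* from itaconate to both was −0.00997 with RLE, −0.00165 with filterByExpr, −0.000971 with the 8 libraries, −0.01 in DESeq2 and −0.00257 in limma-trend, and *Foxo1* in the interaction was −0.000299 with filterByExpr. With 1 library left out, log2 fold changes ranged from −0.00312 to 0.062 for *Akt2* with itaconate. In cells with lipid they ranged from −0.026 to 0.114 for *Irs2*, −0.018 to 0.108 for *Akt1* and −0.013 to 0.072 for *Pik3r1*. With lipid they ranged from −0.055 to 0.014 for *Trib1*, and from itaconate to both from −0.098 to 0.00806 for *Trib1* and −0.094 to 0.074 for *Irs1*. In the interaction the ranges were −0.038 to 0.03 for *Akt2*, −0.063 to 0.097 for *Foxo1*, −0.086 to 0.00756 for *Pik3r1* and −0.079 to 0.032 for *Trib1*.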
